A study of Homo sapiens with 12 samples.

Results

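The transforming growth factor beta (TGF-beta) genes described here are 10 genes read by name from the expression tables of PE/CA-PJ41, an established line grown from a human squamous carcinoma of the mouth. They are the ligands TGFB1, TGFB2 and INHBA, the receptors TGFBR1 and TGFBR2, the feedback inhibitors SMAD7, SKIL and PMEPA1, and the target TGFBI. LTBP2, a matrix protein of the latent TGF-beta binding family, completes the list. All 10 of the 10 were found among 20375 listed genes, and all 10 were among the 12517 genes that entered the fit. Messenger RNA was sequenced in 12 libraries of this line: 4 of untreated cells (control), 4 of cells given human plasma at 10% and 4 of cells given platelet-rich plasma (PRP) at 10%, both for 48 h. The labels give no culture time or medium for the control, so matched times cannot be assumed in comparisons with it. They do not say that the 4 libraries of a group came from separate cultures. Every p-value and confidence interval therefore measures library spread only, which may be technical. All 12 libraries come from 1 cell line.

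TGF-beta ligands are secreted bound to a latency peptide and to latent TGF-beta binding proteins, and integrins or proteases release the active dimer. The active ligand joins TGFBR2 to TGFBR1, which phosphorylates SMAD2 and SMAD3, and these enter the nucleus with SMAD4. The SMADs switch on matrix genes and also their own brakes, among them SMAD7, SKIL and PMEPA1, so transcripts of the brakes are widely used as a readout of the pathway. In squamous epithelium TGF-beta restrains growth, and in carcinomas it is also known for invasion and matrix remodelling. Platelets store TGF-beta1 in their granules, so PRP set against plasma is the comparison that bears on ligand brought by platelets.

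Depth was 36258955 to 41976136 estimated reads in a library. The unit is TPM, each transcript's share of all transcripts on a fixed scale, which corrects for depth and transcript length, and fold changes come from limma on log2(TPM + 1), a scale that understates changes of genes near 1 TPM. All 9 squamous markers were expressed and in the fit, and 2 rose and 3 fell with plasma, 2 and 2 with PRP. Mean KRT5 was 4784 TPM in control, 7645 in plasma and 7677 in PRP libraries, mean KRT17 2696, 1793 and 1647, and mean TP63 96.9, 100.4 and 96.85. Of 8 platelet markers 3 (PF4, GP9 and TREML1) had 0 reads in every library, and the summed list was at most 0.718 TPM in control, 1.36 in plasma and 1.28 in PRP libraries. Among the others GP1BB had 0 reads in control and at most 14 with plasma and 18 with PRP, PPBP had reads, at most 3, with PRP, and control, plasma and PRP libraries had mean ITGA2B of 0.561, 0.446 and 0.320 TPM. The 8 fibroblast markers summed to between 16.5 and 22.2 TPM in control, 14.6 and 18.4 with plasma and 13.9 and 14.8 with PRP. Most of that came from COL1A1 and LUM, which moved in opposite directions. Mean COL1A1 was 8.88 TPM in control, 11.1 in plasma and 9.46 in PRP libraries, and mean LUM 8.40, 3.87 and 3.42. COL1A2, COL3A1, PDGFRA, PDGFRB and THY1 had mean levels under 1 TPM in each group. Of the 3 fibroblast genes in the fit, 1 fell with plasma and 2 with PRP, and the part of this movement in the results below was not tested. The 3 endothelial markers summed to between 12.4 and 24.1 TPM in control and to between 29.4 and 38.1 TPM in treated libraries, mostly from CDH5, and PECAM1 was at or below 0.0501 TPM. The 6 leukocyte markers summed to between 2.93 and 4.01 TPM in control and to between 5.36 and 7.21 TPM in treated libraries. CD14 was the 1 of them that rose, and PTPRC was at most 0.774 TPM. The part of these lists in the results was not tested either.

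LTBP2, PMEPA1, TGFBR1 and TGFBR2 were lower than in untreated cells with plasma and with PRP, SMAD7 was lower with plasma, and TGFBI was the 1 gene that rose. The ligands TGFB1, TGFB2 and INHBA did not pass the test in either comparison. In bulk RNA, fewer cells that express a gene and less of its RNA per cell cannot be told apart. With plasma 6 of 10 genes were called (adjusted p under 0.05 with limma over all tested genes), 5 lower and 1 higher, against a background of 49.3% of all tested genes called, 29.0% lower and 20.3% higher. With PRP 5 of 10 were called, 4 lower and 1 higher, against 53.1% called, 31.5% lower and 21.7% higher. A share of 6 or 5 in 10 is near the background, so the number of calls is not particular to these genes. The median log2 difference of the 10 genes was -0.17 with plasma and -0.20 with PRP, beside -0.05 and -0.06 over all tested genes. Over all genes the share of calls that were lower was 58.8% with plasma as deposited and 45.9% after median centring, and 59.2% and 46.0% with PRP. Among the 10 genes the split stayed at 5 lower and 1 higher with plasma after centring, and moved to 4 lower and 2 higher with PRP. The 2 treated groups share the same control libraries, so their differences from control are not independent of each other.

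**Figure D1:**
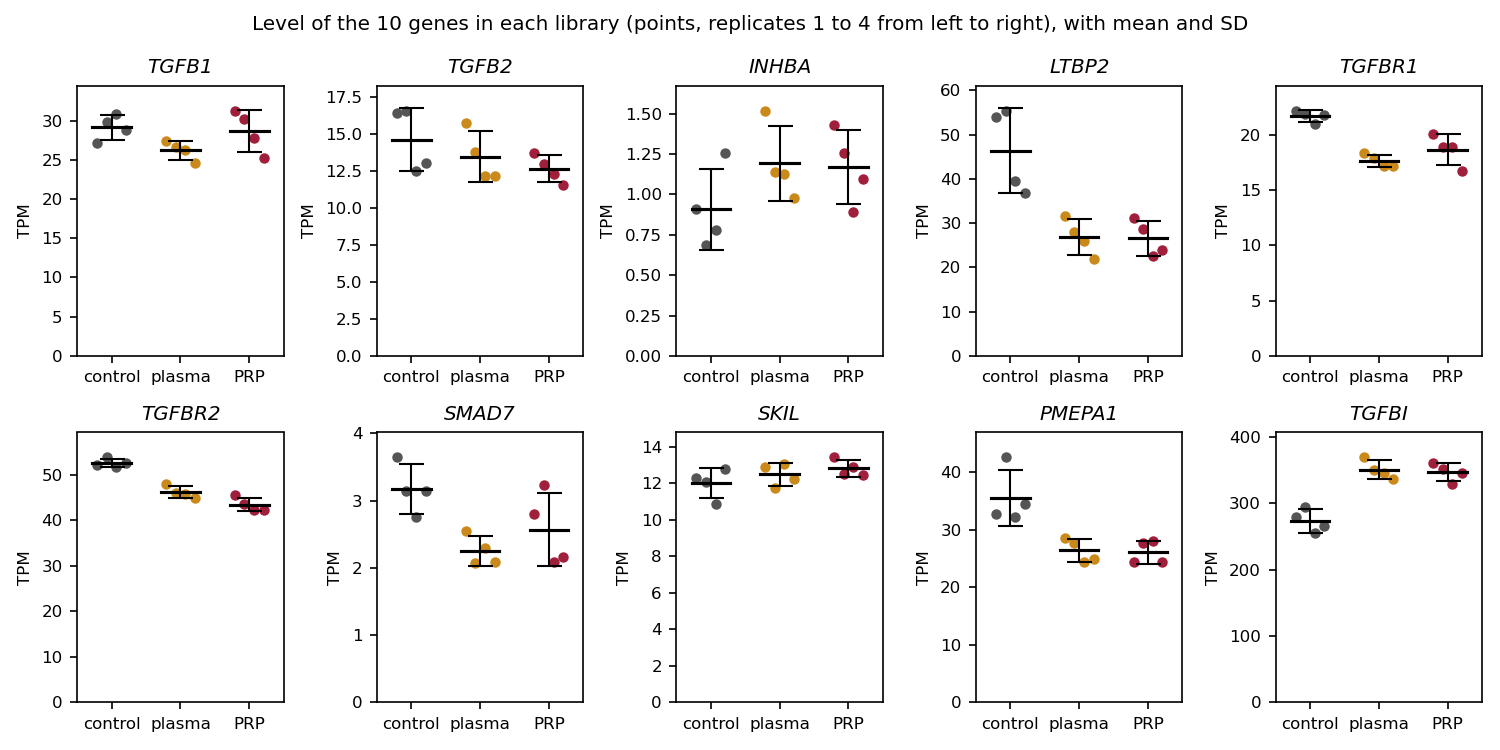
Level in TPM (vertical axes, from 0) of the 10 genes in control, plasma and PRP libraries; points are single libraries, the long bar is the mean and the whiskers are the SD, n = 4 per group. LTBP2, PMEPA1, TGFBR1 and TGFBR2 are lower and TGFBI is higher in every treated library than in every control library, while the plasma and PRP points of each gene overlap.

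The ligands come first. TGFB1 (chromosome 19, 41301587 to 41353911, minus strand, GRCh38, GENCODE 29 here and below) encodes the main isoform, stored also by platelets. Its level was 27.1, 29.9, 30.8 and 28.9 TPM in control replicates 1 to 4, 27.5, 26.7, 26.3 and 24.6 with plasma, and 31.3, 30.2, 27.8 and 25.3 with PRP. The 3 groups overlapped. The log2 difference from control was -0.15 with plasma (95% confidence interval -0.29 to -0.006, limma adjusted p = 0.0790) and -0.03 with PRP (adjusted p = 0.737). The plasma difference passed the threshold when control replicate 1 (adjusted p = 0.0469), PRP replicate 4 (adjusted p = 0.0439) or the 3 libraries numbered 1 (adjusted p = 0.0333) were left out. TGFB1 shares 215 exonic bases with HNRNPUL1 on the other strand, a gene at a mean of 325 TPM. No source used here says whether strand entered the counting, so reads in that stretch cannot be told apart.

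TGFB2 (chromosome 1, 218346235 to 218444619, plus strand) encodes the second isoform. It was measured at 16.4, 16.6, 12.5 and 13.1 TPM in control, 15.8, 13.8, 12.2 and 12.2 with plasma, and 13.7, 12.9, 12.3 and 11.6 with PRP. All groups overlapped, and the limma differences from control were -0.11 for plasma (adjusted p = 0.406) and -0.19 for PRP (adjusted p = 0.137). TGFB2 shares 1371 of its 5151 exonic bases with TGFB2-OT1 on the same strand. TGFB2-OT1 is not among the listed genes, so reads in that stretch cannot be told apart. INHBA (chromosome 7, 41667168 to 41705834, minus strand) encodes the subunit of activin A, a related ligand that signals through the same SMADs. It was the lowest of the 10 genes, at 0.909 ± 0.252 TPM in control (SD, n = 4), 1.19 ± 0.231 with plasma and 1.17 ± 0.228 with PRP. Its control range of 0.686 to 1.26 TPM overlapped both treated ranges (adjusted p = 0.187 and 0.214). INHBA rested on 100 to 172 estimated reads per library, and its log2 effective length was lower by 0.29 with plasma and by 0.11 with PRP. On estimated reads, INHBA passed with PRP (log2 difference 0.35, limma voom adjusted p = 0.0402) but not with plasma.

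TGFB3, the third isoform and not one of the 10 genes, was 6.73 ± 1.001 TPM in control, 7.47 ± 0.953 in plasma and 7.43 ± 0.403 in PRP libraries, with adjusted p of 0.294 and 0.292. On estimated reads TGFB3 passed with PRP (limma voom adjusted p = 0.0299). The 3 isoforms summed to 50.5 ± 2.38, 47.2 ± 3.45 and 48.7 ± 3.62 TPM. TGFB1 made up 57.8% ± 4.34 of that sum in control, 55.7% ± 2.33 with plasma and 58.7% ± 1.43 with PRP. Thus the order TGFB1, TGFB2, TGFB3 held in the mean of each group, and the library ranges of the TGFB1 share overlapped between groups.

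LTBP2 (chromosome 14, 74498170 to 74612378, minus strand) encodes a large matrix protein of the latent TGF-beta binding family that sits on elastic fibres. It showed the largest change of the 10 genes in both comparisons with control. Its level was 53.9, 55.4, 39.5 and 36.8 TPM in control, 31.7, 28.1, 26.0 and 22.0 with plasma, and 31.1, 28.7, 22.6 and 24.0 with PRP. Every treated library lay below every control library, although the control values themselves fell into a higher and a lower pair. The mean went from 46.4 ± 9.65 TPM to 26.95 ± 4.06 with plasma, a ratio of 0.581, and to 26.6 ± 3.96 with PRP, a ratio of 0.573. The log2 differences were -0.75 ± 0.14 (SE, limma adjusted p = 0.000658) and -0.77 ± 0.14 (adjusted p = 0.000468). LTBP2 passed in 21 of 21 alternative settings for each additive, with a highest limma adjusted p of 0.00289 and 0.00218. It shares 207 exonic bases with AC013451.1 on the other strand, which is not among the listed genes.

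The type I receptor TGFBR1 (chromosome 9, 99104038 to 99154192, plus strand) is the kinase that phosphorylates SMAD2 and SMAD3. Its level was 22.2, 21.9, 20.9 and 21.8 TPM in control, 18.3, 17.9, 17.2 and 17.1 with plasma, and 20.1, 18.9, 18.9 and 16.8 with PRP. No treated library reached the lowest control library. TGFBR1 fell by 18.8% in mean TPM with plasma (log2 difference -0.29 ± 0.06 SE, limma adjusted p = 0.000823) and by 14.1% with PRP (-0.21 ± 0.06, adjusted p = 0.00578).

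The type II receptor TGFBR2 (chromosome 3, 30606502 to 30694142, plus strand) binds the ligand first. Control libraries held 52.2, 53.9, 51.6 and 52.5 TPM, plasma libraries 48.0, 45.9, 45.8 and 44.9, and PRP libraries 45.4, 43.7, 42.2 and 42.4. This was the tightest of the 10 genes, with a coefficient of variation of 1.82% in control. TGFBR2 fell by 12.2% with plasma (log2 difference -0.18 ± 0.04, limma adjusted p = 0.00136) and by 17.4% with PRP (-0.27 ± 0.04, adjusted p = 5.19e-05). The ratio of TGFBR2 to TGFBR1 was 2.42 ± 0.0533 in control, 2.62 ± 0.0412 in plasma and 2.34 ± 0.132 in PRP libraries. Plasma libraries, at 2.565 to 2.666, lay above those of control (2.351 to 2.466) and of PRP (2.24 to 2.527). This ratio is a description chosen after the values were seen, and it was not tested.

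Promoters are shown for 3 genes, because SMADs act on such regions. They are the brake PMEPA1, lower with both additives, the brake SMAD7, called lower with plasma only, and TGFBI, the 1 gene that rose. The 3 runs are from RefSeq on GRCh38.p14, 5′ to 3′ on the gene's strand, 250 bases before to 30 bases after the start site, and capitals mark the SMAD element CAGAC on either strand (GTCTG on the other). PMEPA1 is chr20:57709986-57710265 on the minus strand, 1 of 4 windows listed for it, SMAD7 is chr18:48950936-48951215 on the minus strand, 1 of 3, and TGFBI is chr5:136028738-136029017 on the plus strand, the 1 window it has.
PMEPA1: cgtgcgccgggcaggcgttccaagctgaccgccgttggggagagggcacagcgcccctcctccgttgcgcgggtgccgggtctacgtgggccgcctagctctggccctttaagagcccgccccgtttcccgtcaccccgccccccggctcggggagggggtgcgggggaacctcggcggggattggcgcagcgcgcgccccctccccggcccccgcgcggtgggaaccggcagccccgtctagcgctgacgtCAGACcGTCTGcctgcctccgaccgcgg
SMAD7: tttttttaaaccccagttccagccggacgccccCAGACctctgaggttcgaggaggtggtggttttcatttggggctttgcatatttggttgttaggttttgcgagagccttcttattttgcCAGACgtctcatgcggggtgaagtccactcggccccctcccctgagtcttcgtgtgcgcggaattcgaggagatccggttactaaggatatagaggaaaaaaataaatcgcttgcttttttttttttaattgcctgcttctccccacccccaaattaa
TGFBI: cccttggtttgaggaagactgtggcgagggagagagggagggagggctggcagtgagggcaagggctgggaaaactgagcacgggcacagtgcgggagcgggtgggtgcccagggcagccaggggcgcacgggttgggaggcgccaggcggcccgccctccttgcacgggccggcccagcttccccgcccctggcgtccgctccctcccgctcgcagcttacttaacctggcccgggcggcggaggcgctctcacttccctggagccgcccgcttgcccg

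The PMEPA1 window holds 2 such elements that face each other just after the start site, beginning at bases 3 and 9 after it. SMAD7 holds 2 on the gene's strand, with first bases at -217 and -128 from the start, and the TGFBI window holds 0. The windows shown for PMEPA1 and SMAD7 hold more such elements than the other windows of the same gene. Their numbers therefore cannot be set against that of TGFBI. All 10 genes matched the RefSeq table by symbol, with 23 windows of 300 bases in all. CAGAC on either strand was found in 13 of the 23 windows (56.5%), in 7 of the 10 genes, against 45.3% of all 35116 windows. The 7 were INHBA, LTBP2, PMEPA1, SKIL, SMAD7, TGFB2 and TGFBR1, so genes that were called and genes that were not both hold it. The palindromic SMAD box GTCTAGAC was in 0 of the 23 and in 0.202% of all windows, and the AP-1 site TGANTCA was in 1 of 23, at TGFBR2, and in 7.71% of all. No motif lies inside another, and these matches are descriptions of letters only.

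SMAD7 (chromosome 18, 48919853 to 48952052, minus strand) blocks the receptor and is itself induced by the SMADs. Its level was 3.65, 3.15, 2.75 and 3.15 TPM in control, 2.55, 2.07, 2.30 and 2.08 with plasma, and 2.80, 3.22, 2.09 and 2.15 with PRP. Plasma libraries lay below all controls, whereas PRP replicates 1 and 2 lay within the control range. SMAD7 fell with plasma (ratio 0.709, log2 difference -0.36 ± 0.11 SE, limma adjusted p = 0.0166), a call that ended without control replicate 1 (adjusted p = 0.0507). With PRP the ratio was 0.809 (log2 difference -0.23 ± 0.11, adjusted p = 0.0924). PRP replicate 2 had the highest TPM of its group but the fewest reads, 170, beside an effective length of 1942 bases, against 2956 to 3064 in the other PRP libraries. In estimated reads every control library, at 225 to 265, lay above every plasma library, at 146 to 196, and every PRP library, at 170 to 194, while plasma and PRP overlapped. Scaled to library size, controls held 5.42 to 6.45 RPM of SMAD7 against 4.02 to 4.67 after plasma and 4.05 to 5.25 after PRP. SMAD7 passed with PRP on estimated reads (limma voom adjusted p = 0.00602) and, with PRP replicate 2 left out, on TPM (adjusted p = 0.0277).

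PMEPA1 (chromosome 20, 57648392 to 57711536, minus strand) encodes a membrane protein that sequesters SMAD2 and SMAD3. Its level was 32.7, 42.6, 32.2 and 34.4 TPM in control, 28.6, 27.6, 24.4 and 24.9 with plasma, and 24.4, 27.6, 28.1 and 24.4 with PRP. The groups of treated cells did not overlap with control. PMEPA1 fell to 0.744 of control with plasma (log2 difference -0.41 ± 0.09 SE, limma adjusted p = 0.00144) and to 0.736 with PRP (-0.42 ± 0.09, adjusted p = 0.000948). Its effective length was shorter in treated cells, by 0.20 and 0.13 on the log2 scale, so the change in reads scaled to library size was larger, at -0.58 and -0.53. PMEPA1 shares 343 exonic bases with the antisense gene NKILA, which is not analysed here.

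SKIL (chromosome 3, 170357678 to 170396835, plus strand) encodes SnoN, a repressor that binds the SMADs. Its level was 12.0 ± 0.816 TPM in control, 12.5 ± 0.620 in plasma and 12.8 ± 0.462 in PRP libraries. The ranges overlapped, with log2 differences of 0.05 (adjusted p = 0.486) and 0.09 (adjusted p = 0.232). With PRP the difference passed under median centring (0.15, adjusted p = 0.0428) and median-of-ratios scaling (0.15, adjusted p = 0.0455). In reads scaled to library size the differences were -0.05 and 0.00, beside log2 effective lengths lower by 0.14 and 0.13. The interval of the SKIL difference, 0.948-fold to 1.14-fold with plasma and 0.971-fold to 1.17-fold with PRP, did not reach the falls of PMEPA1.

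TGFBI (chromosome 5, 136028895 to 136063818, plus strand) encodes a secreted matrix protein that binds integrins and takes its name from induction by TGF-beta. It was the most abundant of the 10 genes, above 96.7% of tested genes in mean level. Its level was 279, 295, 255 and 265 TPM in control, 370.0, 351, 345 and 336 with plasma, and 362, 352, 329.6 and 346 with PRP. All 8 treated libraries were above all 4 controls. TGFBI rose to 1.28 times control with plasma (log2 difference 0.36 ± 0.05 SE, limma adjusted p = 2.81e-05) and to 1.27 times with PRP (0.34 ± 0.05, adjusted p = 3.22e-05). The rise passed in 21 of 21 alternative settings for each additive, and its effective length moved by less than 0.01 on the log2 scale.

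The libraries of control and plasma did not overlap in 6 of the 10 genes, and those of control and PRP in 5, against backgrounds of 43.9% and 46.8% of all tested genes. In untreated cells the levels ran from TGFBI through TGFBR2, LTBP2, PMEPA1, TGFB1, TGFBR1, TGFB2, SKIL and SMAD7 to INHBA. Library ranges of the neighbours TGFBR2 and LTBP2, LTBP2 and PMEPA1, and TGFB2 and SKIL overlapped in that order. With PRP the order of TGFB1, LTBP2 and PMEPA1 changed and SKIL and TGFB2 exchanged places, and in both cases the ranges of neighbours overlapped.

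PRP was then set against plasma. None of the 10 genes passed with limma, against a background of 0.0639% of genes called, or 8 of 12517. An unadjusted p under 0.05 was found for 1 of 10 (TGFBR2), against 7.98% of all tested genes. With voom on estimated reads 0 of the 10 passed as well, and the count was 0 in 21 of 21 alternative settings. The plasma and PRP libraries overlapped in each of the 10 genes, while they did not overlap in 5.22% of all tested genes. TGFBR2 differed by -5.89% in mean TPM between PRP and plasma (log2 difference -0.09, 95% confidence interval -0.17 to -0.003, limma adjusted p = 0.604).

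The intervals show what size of difference between PRP and plasma the spread of these libraries leaves possible, on the log2(TPM + 1) scale. That spread may be technical, so the intervals do not bound the effect of PRP in separate cultures. For TGFBI the PRP level lay between 0.924 and 1.06 times the plasma level, for PMEPA1 between 0.871 and 1.124 times and for LTBP2 between 0.799 and 1.22 times. SMAD7 had the widest upper limit, at 0.922 to 1.29 times (log2 difference 0.12, limma adjusted p = 0.848), and INHBA lay between 0.824 and 1.187 times. These limits are ratios of TPM + 1. For the low genes SMAD7 and INHBA they therefore understate what is possible in TPM, and the ratio of mean TPM for SMAD7 was 1.14. TGFB1 was 0.984 to 1.197 times plasma (log2 difference 0.12, adjusted p = 0.696), and SKIL 0.935 to 1.124 times. In these libraries a difference as large as that of TGFBI or LTBP2 from control lay outside the interval of the same gene between PRP and plasma.

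**Figure D2:**
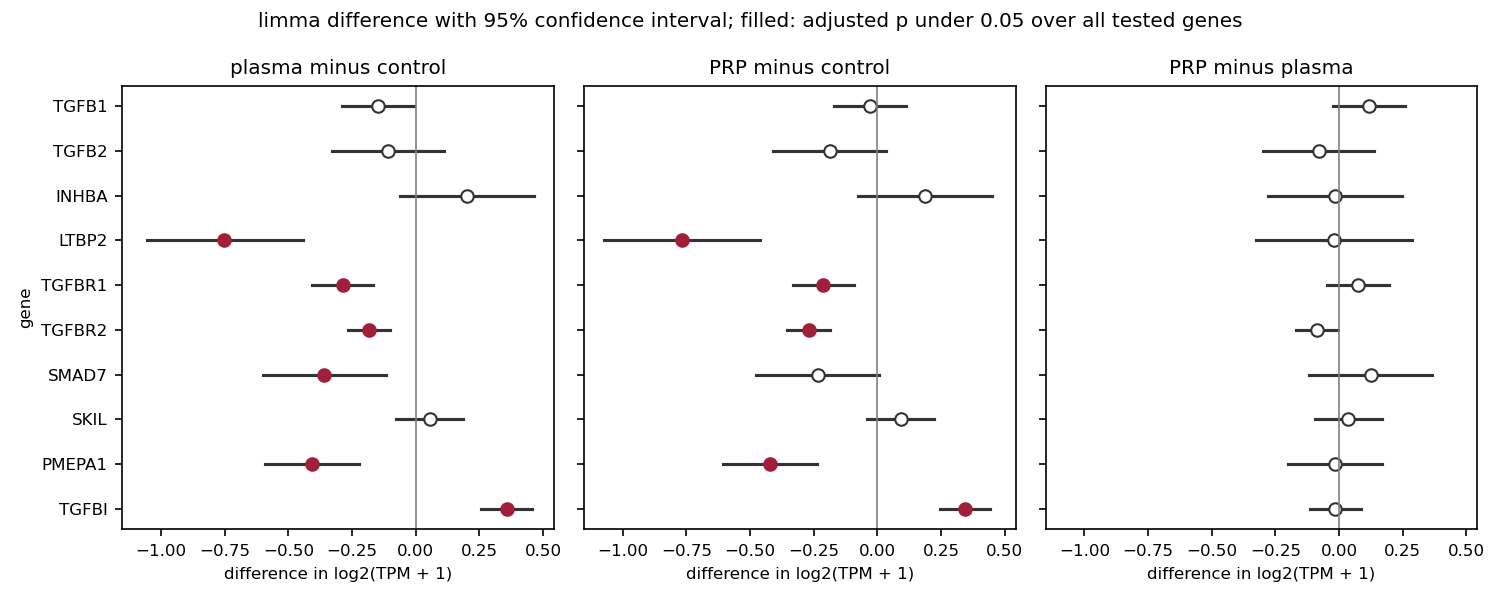
Difference in log2(TPM + 1) (horizontal axis) of each gene (vertical axis) for plasma minus control, PRP minus control and PRP minus plasma; points are limma estimates, lines are 95% confidence intervals, and filled points have an adjusted p under 0.05. LTBP2 lies farthest left in both comparisons with control, at -0.75 and -0.77, TGFBI is the 1 filled point to the right of 0, and no point is filled between PRP and plasma.

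The rest of the pathway was read from a list of 68 genes by role, which includes the 10, and 56 of them were in the fit. With plasma 29 of 56 were called, 26 lower and 3 higher, or 51.8% against 49.3% of all tested genes, and 46.4% lower against 29.0%. With PRP 24 of 56 were called, 20 lower and 4 higher, or 42.9% against 53.1%, and 35.7% lower against 31.5%. Their median log2 difference was -0.19 with plasma and -0.15 with PRP. Between PRP and plasma 0 of 56 passed with limma and with voom. An unadjusted p under 0.05 was found for 5 of 56 (8.93%), against 7.98% of all tested genes.

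Among ligands 0 of 5 tested genes were called in either comparison with control, and INHBB, NODAL and MSTN were below the filter. NODAL and the target CDKN2B had 0 reads in every library, which allows up to 0.0827 RPM in the library with the fewest reads, for counting error only. Of 10 genes listed under latency and activation 5 fell and 0 rose with each additive (LTBP2, LTBP4, ITGB8, ITGB1 and THBS1). Thus 5 of 10 called is near the 49.3% and 53.1% of all tested genes, while the lower calls compare with 29.0% and 31.5%. ITGB8, the subunit of an integrin that releases active TGF-beta, fell. Its control mean of 51.9 ± 6.92 TPM compared with 31.6 ± 2.84 in plasma libraries (limma adjusted p = 6.15e-05) and 33.2 ± 4.11 in PRP libraries (adjusted p = 0.000114). ITGB1, the common beta subunit of integrins, fell from 221 ± 3.28 TPM to 183.5 ± 12.3 and 189 ± 4.54 (adjusted p = 0.000141 and 0.000460).

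Of 6 tested receptors 2 fell with plasma, TGFBR1 and TGFBR2, and with PRP ACVR2B fell too and TGFBR3 rose. TGFBR3, a co-receptor that presents TGF-beta2, was 5.53 ± 0.647 TPM in control, 6.03 ± 0.371 in plasma and 6.80 ± 0.720 in PRP libraries (limma adjusted p = 0.0273). That call ended without control replicate 3 (adjusted p = 0.0867), PRP replicate 1 (0.0642), PRP replicate 2 (0.0856) or the 3 libraries numbered 1 (0.0900). On estimated reads TGFBR3 also passed with plasma (0.21, limma voom adjusted p = 0.0153). Of the 3 SMAD transducers SMAD4 fell with plasma and 0 were called with PRP. Of 13 tested feedback genes and inhibitors 8 fell and 0 rose with plasma, and 4 fell and 0 rose with PRP. These are 61.5% lower with plasma, against 29.0% of all tested genes, and 30.8% with PRP, which is at the background of 31.5%. TGIF1, a repressor that binds SMADs, went from 130 ± 4.29 TPM to 110.3 ± 4.23 and 110.5 ± 1.66 (limma adjusted p = 0.000112 and 0.000103). PPM1A, a phosphatase described to act on SMADs, went from 67.7 ± 2.95 to 59.3 ± 3.07 and 57.8 ± 1.96.

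The targets moved both ways. Of 19 tested, 10 fell and 3 rose with plasma, and 8 fell and 3 rose with PRP, with TGFBI among those that rose in each. The targets called were 68.4% with plasma and 57.9% with PRP, against 49.3% and 53.1% of all tested genes, and those lower were 52.6% and 42.1%, against 29.0% and 31.5%. CCN2, a matricellular growth factor that also responds to YAP, went from 25.1 ± 5.93 TPM to 18.7 ± 0.702 in plasma (limma adjusted p = 0.0174) and 16.0 ± 0.519 in PRP libraries (adjusted p = 0.000874). The CCN2 libraries of PRP all lay below those of plasma, but the log2 difference of -0.21 did not pass (limma adjusted p = 0.699). CCN2 was 1 of 2 among the 19 tested targets without overlap between PRP and plasma, against 5.22% of all tested genes. Differences of the 19 targets between PRP and plasma ran from -0.212 to 0.296, with 9 above 0 and 0 called. An unadjusted limma p under 0.05 was found for 3 of 19 (15.8%), against 7.98% of all tested genes. The plasma call of CCN2 ended without control replicate 1 (adjusted p = 0.0568), control replicate 2 (0.0563) or the libraries numbered 1 (0.0714). PTHLH, parathyroid hormone-related protein, went from 65.2 ± 5.13 TPM to 45.2 ± 3.02 and 47.6 ± 2.61, and CDKN1A, the cell cycle inhibitor p21, from 113 ± 6.01 to 86.9 ± 5.10 and 86.7 ± 2.75. All 4 of these differences passed, with limma adjusted p of 1.51e-05 and 4.71e-05 for PTHLH and of 2.14e-05 and 1.70e-05 for CDKN1A.

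IL11 and TGM2, both named after their values were seen, fell to 0.301 and 0.233 of control with plasma and to 0.309 and 0.352 with PRP. IL11, a cytokine, was at 3.47 to 5.04 TPM without additive, 0.661 to 1.71 after plasma and 0.846 to 1.67 after PRP (limma adjusted p = 3.03e-05 and 3.14e-05). TGM2, a crosslinking enzyme, was at 1.44 to 2.44 TPM without additive, 0.338 to 0.505 after plasma and 0.449 to 0.733 after PRP. Only control libraries reached the 1 TPM that the filter asks for, so TGM2 entered the fit through the group where it was high. Its test is therefore not used as support, although TGM2 stands in the counts of targets and pathway genes that fell. In reads, IL11 had 126 to 158 in control against 29 to 58 in treated libraries, and TGM2 147 to 240 against 45 to 71.

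**Figure D3:**
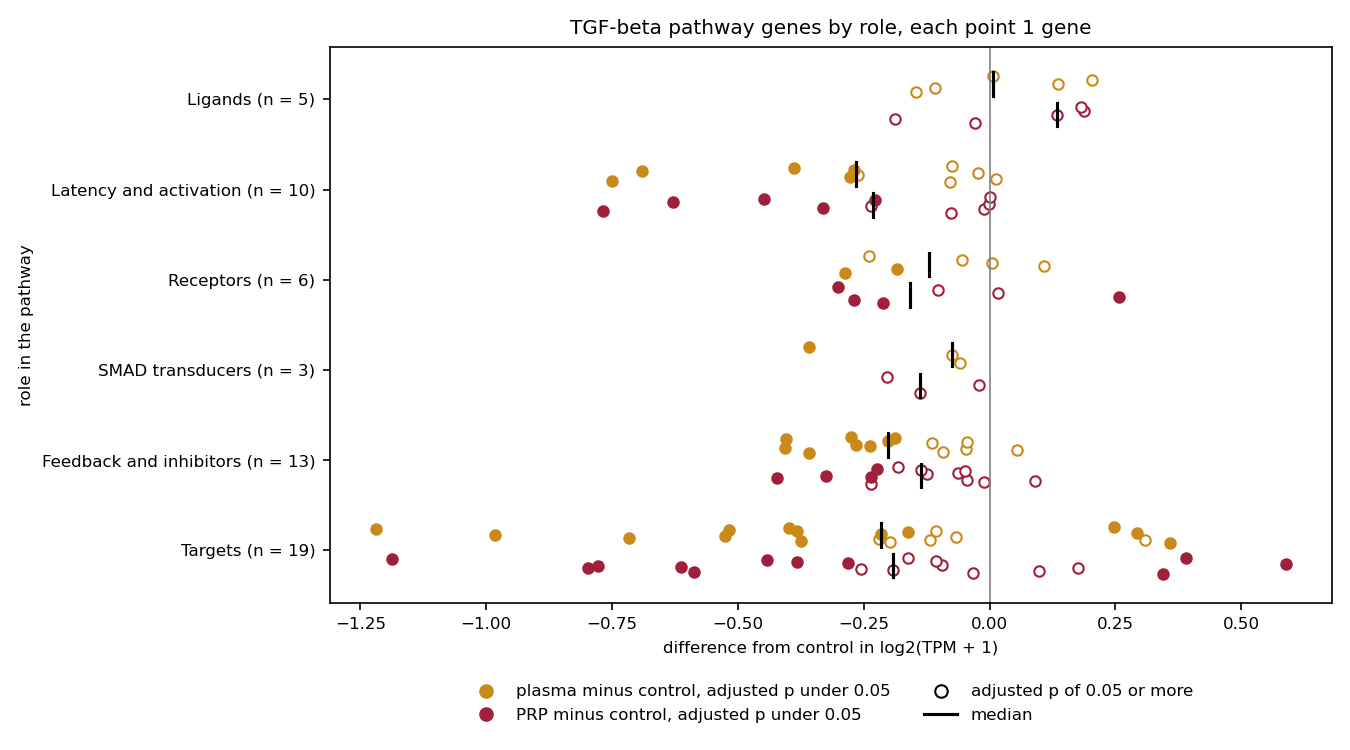
Difference from control in log2(TPM + 1) (horizontal axis) of 56 TGF-beta pathway genes by role (vertical axis), for plasma and for PRP; each point is 1 gene, filled where the adjusted p is under 0.05, and black bars are medians. No ligand is filled. Filled points listed under latency and activation and under feedback genes and inhibitors all lie left of 0, and targets lie on both sides.

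Genes of like pattern were sought for 3 of the 10, by the root mean square difference between log2 profiles over 12 libraries, each centred on its own mean, among 10222 genes with at least 5 TPM. For PMEPA1 they were GJC1 (0.075), SLC10A3 (0.076) and SGCB (0.078), beside a root mean square of 0.229 for the profile of PMEPA1 itself. For TGFBI they were ADD3 (0.041), IK (0.043) and CRTAP (0.044), beside 0.176. For TGFB2 they were ARHGEF12 (0.045), STAT3 (0.049) and MMP14 (0.050), beside 0.159. MMP14, a membrane protease, was 142 ± 23.8 TPM in control, 129 ± 10.2 in plasma and 125 ± 7.31 in PRP libraries. The 12 libraries share their groups, so these are descriptions.

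Part of the spread within groups followed the replicate numbers. LTBP2, TGFB2 and TGFBI were higher in the libraries numbered 1 and 2 than in those numbered 3 and 4 in every group, which was so for 3 of 10 genes and for 9.18% of all tested genes, a split noticed after the values were seen. The labels do not say what a number stands for. LTBP2 differed from control by -0.85 with plasma among libraries 1 and 2 and by -0.65 among libraries 3 and 4, and by -0.85 and -0.69 with PRP. TGFB2 differed by -0.15 and -0.07 with plasma and by -0.29 and -0.09 with PRP. TGFBI differed by 0.33 and 0.39 with plasma and by 0.31 and 0.38 with PRP. For INHBA the values were 0.37 and 0.03 with plasma and 0.38 and -0.01 with PRP, so the larger values were in libraries 1 and 2. Of the called genes, 6 of 6 with plasma and 5 of 5 with PRP had the same sign in both pairs of numbers.

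**Figure D4:**
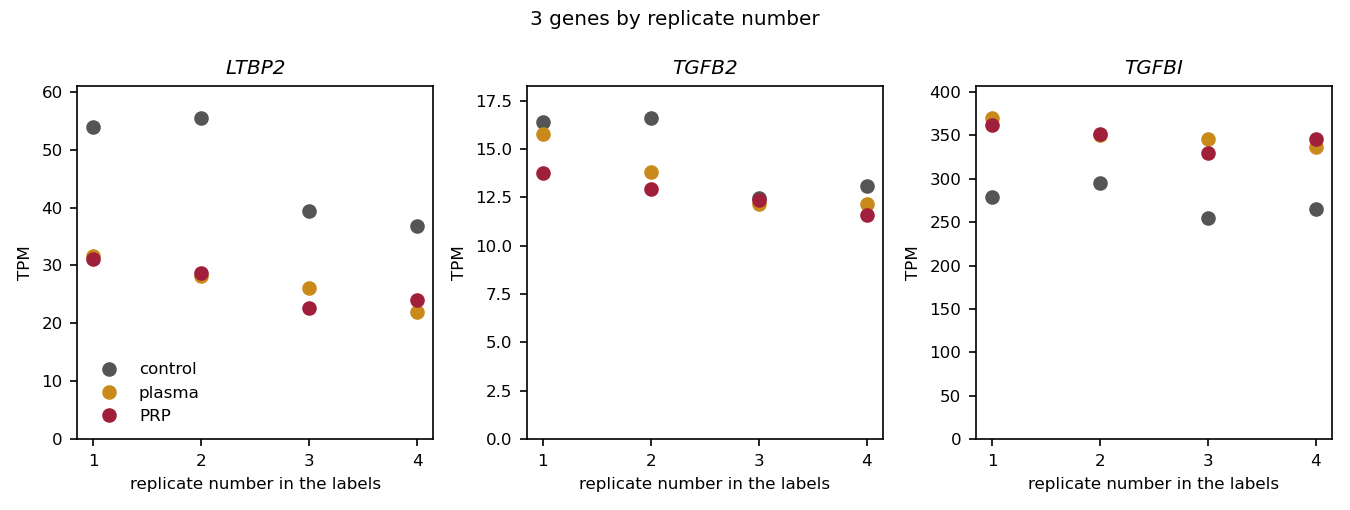
Level in TPM (vertical axes, from 0) of LTBP2, TGFB2 and TGFBI by replicate number in the labels (horizontal axes), with 1 point per library coloured by group. In each group the points numbered 1 and 2 (plasma lies under PRP at 2 for TGFBI) lie above those numbered 3 and 4, and for LTBP2 and TGFBI the control points stay apart from the treated points at each number.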

How the data were processed

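PE/CA-PJ41 libraries were made from polyadenylated RNA (RNeasy extraction, Watchmaker mRNA kit), per the labels' protocols. The submitters' processing notes name Salmon and hg38, without a Salmon version or transcript set. Per the file headers, each deposited file gives the length, effective length, TPM and estimated count of reads for 20375 genes of 1 library. Recomputing TPM from the reads and lengths gave the deposited value for all 20375 genes in each library, to within 1% and 0.01 TPM. Because numbers carry decimal commas, the unit check could not read the columns as counts. No negative binomial model was therefore run, and the estimated reads, parsed from the files, entered limma voom as an alternative.

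Differences were tested on log2(TPM + 1) by limma's trend method (R 4.3.3, limma 3.58.1), two-sided. Genes needed 1 TPM or more in 4 or more libraries. The fit had 1 mean per group over 12 libraries and 9 residual degrees of freedom, and p-values were adjusted by Benjamini-Hochberg over all tested genes. The functions were tested on simulated data. Alternatives were a pseudocount of 0.1, other filters and scalings, voom on estimated reads, fewer libraries and the replicate block, and with libraries left out the tested genes were kept. Members, lists and tests were chosen with earlier results of these data known. Named beside the 10 genes are TGFB3, CCN2, per role and comparison up to 2 others with the smallest adjusted p among called genes with a mean of at least 5 TPM, and the 3 genes of most alike pattern for PMEPA1, TGFBI and TGFB2. Some genes that the rule or a count would name are not reported here. Other genes are named only to spell out a short count, as markers or as stated in the text. Replicates differed by more than sampling noise in every pair, with a chi-square per gene of at least 3.68.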

Additional observations from a re-analysis of the deposited data

Results flagged for a closer look

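In 63 groups of 4 libraries over 21 named genes, 4 had 1 library set apart from the other 3 by more than Dixon's 95% critical value allows, and chance alone gives about 1 in 20 groups, or 3.15. TGFB3 was 5.24 TPM in control replicate 3, below 7.10 to 7.37 in the other controls. TGM2 was 0.449 TPM in PRP replicate 3, below 0.707 to 0.733. PPM1A was 54.8 TPM in plasma replicate 4, below 60.4 to 61.2. PTHLH was 49.7 TPM in plasma replicate 2, above 43.3 to 44.3. None of the 10 genes of the report had such a library in these 4 cases.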

How the results depend on the processing

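The counts of called genes among the 10 stayed within 1.5 times in all alternatives, at 5 to 7 with plasma and 5 to 7 with PRP against control, and at 0 between PRP and plasma. Among pathway genes they were 23 to 34, 19 to 31 and 0. Over all genes the count between PRP and plasma, 8 as reported, was 4 without a filter on low values, 16 with only the 8 libraries compared and 1 without the 3 libraries numbered 1, and it ran from 4 to 14 when single libraries were left out (14 without control replicate 1, 5 without plasma replicate 2, 4 without plasma replicate 4, 4 without PRP replicate 2 and 5 without PRP replicate 3). The cause was not tested.

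Signs turned only in differences that were not called. TGFB1 with PRP against control was 0.036 after median centring, 0.032 after median-of-ratios scaling and 0.019 on reads, and -0.071 to 0.028 with single libraries left out. SKIL with plasma was -0.011 on reads. Between PRP and plasma, on reads INHBA was 0.165, LTBP2 0.045 and PMEPA1 0.062, and PMEPA1 was 0.054 without the libraries numbered 1. With single libraries left out INHBA ran from -0.073 to 0.053, LTBP2 from -0.109 to 0.061, PMEPA1 from -0.050 to 0.024 and TGFBI from -0.034 to 0.012.

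The replicate numbers were not treated as pairs, since the labels do not say what they mark and 5 of 12 same-numbered pairs, not all, had a correlation of deviations over 0.1 (range -0.067 to 0.304). All 3 pairs numbered 1 were at 0.152 or more, and 5 of 12 libraries correlated best with their own number, a hint from the data and not from the design that numbers carry shared variation. With the replicate block 6 of the 10 genes were called with plasma, 6 with PRP and 0 between PRP and plasma, 34, 31 and 0 pathway genes, and 9 genes over all between PRP and plasma. TGFB2 with PRP passed under the block (adjusted p = 0.0204), the 1 call among the 10 genes that it changed, and LTBP2 had adjusted p of 4.97e-06 with plasma and 3.22e-06 with PRP. SMAD7 rested on 146 to 265 reads per library and INHBA on 100 to 172, and the part of depth in their spread was not tested.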
